A study of Mus musculus with 2 samples.

Results

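The 78 genes described here are the mouse genes named Mrpl or Mrps followed by a number, which are named for proteins of the mitochondrial ribosome. They were found among the gene probes of a 2-colour oligonucleotide array by the name printed for each probe or by the current symbol that the probe mapped to. The rule gave 130 of 41174 probes and 78 of the 14925 genes that could be tested, 49 named for the large subunit (Mrpl) and 29 for the small subunit (Mrps). Current symbols added 5 probes, which the array printed as Mrp63 (now Mrpl57), D10Ertd322e (now Mrpl42) and Ict1 (now Mrpl58). RNA came from CD4+ CD8+ double-positive (DP) thymocytes, the thymic stage just before T cell selection, of mice with the genotype Bcl11bF/FCD4Cre/Tcra-/- and of TCRa-/- controls. Both genotypes lack Tcra, so their thymocytes stay before selection. The first also carries a floxed Bcl11b gene, which encodes a zinc-finger transcription factor of T cell development, and Cre driven by CD4 sequences. The control label names neither Cre nor the floxed allele, so loss of Bcl11b and the presence of Cre cannot be told apart. Each of 2 arrays on 1 slide held 1 deficient sample in Cy5 and 1 control sample in Cy3, called biological replicates in the labels, with no array in the reverse dye orientation. Dye bias and genotype therefore cannot be told apart at any single gene, and the number of animals behind a sample is not given in the labels.

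Mitochondrial ribosomes translate the few proteins encoded by mitochondrial DNA, all of them subunits of the oxidative phosphorylation complexes. Their RNAs come from the mitochondrial genome, while every protein of the particle is encoded in the nucleus, made in the cytosol and imported. Some of these proteins have a bacterial homologue, and others were gained by the mitochondrial particle and are here called mitochondria-specific. In the thymus, double-positive cells begin as proliferating blasts and become small resting cells.

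Each value is a log2 ratio, deficient over control, normalised by loess within each array so that ratios centre near 0 over most of the range of signal intensity. Each gene was represented by its brightest probe well above background. Both probes of Bcl11b, the deleted gene, were lower in the deficient channel, at -1.40 on replicate 1 and -0.28 on replicate 2 for the brighter and at -1.37 and -2.16 for the other. All 8 DP thymocyte markers were well above background in both genotypes, with summed processed signals of 144095 to 165164 in the deficient and 177186 to 208963 in the control samples. On both arrays 6 of the 8 were lower and 2 higher, against 38.5% and 36.4% of all genes. Their mean ratios ran from -0.57 for Rag2 to 0.48 for Cd8b1. Of the markers of other cells, the 3 NK cell genes (2 of them tested) summed to 7094 and 8099 in the deficient against 3227 and 3288 in the control samples, and the 5 macrophage genes to 27581 and 29820 against 25039 and 9558. Most of the macrophage sum was Lyz2, at 25054 and 28033 against 23207 and 8756. Of the 5 macrophage genes, 3 were higher and 1 lower on both arrays, against 36.4% and 38.5% of all genes. Cd14 had ratios of -0.24 and -0.04, and Csf1r had -0.01 and 0.95. The 4 B cell genes (3 tested) summed to 3688 and 2725 against 5801 and 3431, lower in the deficient sample on each array. The 6 stromal or epithelial genes (5 tested) summed to 6672 and 2451 against 7330 and 1520, and among them Dcn, Col1a1 and Pecam1 were above 0 on both arrays, with mean ratios of 0.84, 0.84 and 0.71. Epcam was below 0 on both arrays, with a mean ratio of -0.41, and Krt8 had -0.84 and 0.25. H2-Aa, of the dendritic cell list, had ratios of 0.11 and 0.30, and the erythroid gene Alas2 had -0.38 and 1.92. Cd79a, Xcr1, Foxn1 and Klf1, markers of B cells, dendritic cells, thymic epithelium and erythroid cells, were not well above background in any sample. The part of other cell types in the values below was not tested, and in such bulk RNA fewer cells of a type and less RNA per cell cannot be told apart.

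The mitochondrial ribosomal protein genes were detected in every sample, and the median ratio of the group lay near 0. All 78 were well above background in all 4 signals and none was saturated. Their mean log2 intensities ran from 9.58 to 16.25, and 63 of them lay at 12 or above. The median log2 ratio over the 78 genes was 0.02 on replicate 1, 0.0047 on replicate 2 and -0.0050 for the mean of both, beside -0.0035 for all 14925 genes. The mean ratios ran from -0.29 for Mrps5 to 0.41 for Mrps26. Of all genes tested, 8.61% lay above this range and 10.3% below it.

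**Figure D1:**
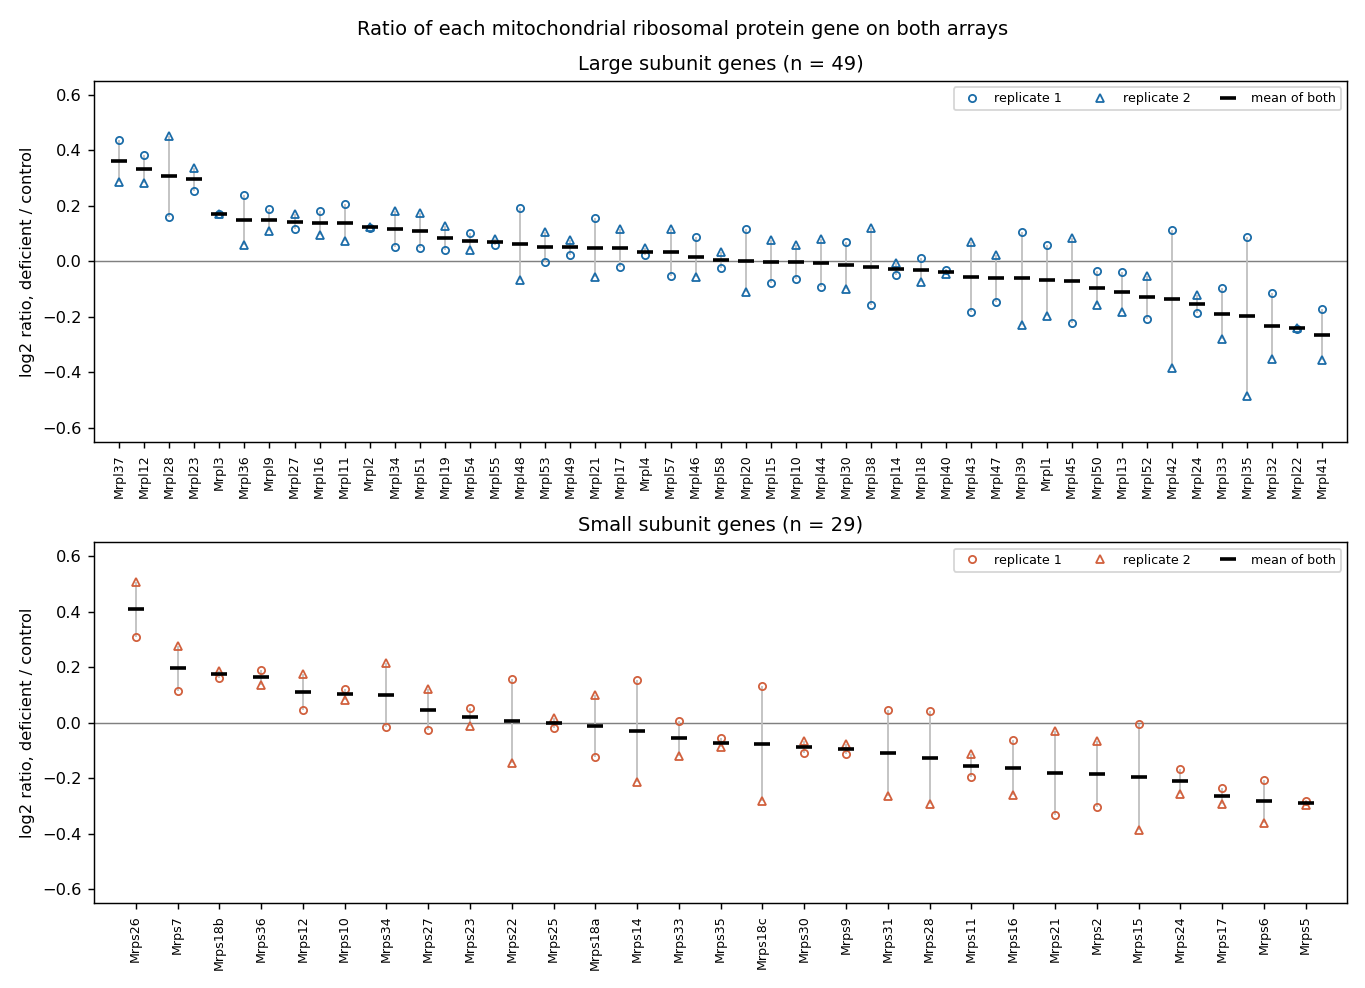
Log2 ratio of deficient over control for each of the 78 mitochondrial ribosomal protein genes, ordered by mean, with the value on each array and the mean; the large and the small subunit are marked apart. Means run from -0.29 to 0.41 and no gene has a mean beyond 0.5 from 0.

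No mitochondrial ribosomal protein gene passed limma's moderated test at an adjusted p of 0.05, and neither did any other gene: 0 of 14925 genes were called, which is 0%. From the processed signals, the deposited value table and a separate-channel fit limma called 1.47%, 0.831% and 8.49% of all genes and 0 of the members. With 2 arrays the test had 1 residual degree of freedom, and the members' adjusted p values ran from 0.106 to 0.999. Before adjustment, 10 of the 78 had a limma p under 0.05 (5 higher and 5 lower), which is 12.8% of them against 29.2% of all genes. By direction these shares of all genes were 15.1% higher and 14.1% lower. On both arrays 24 members were above 0 and 22 below 0, against 36.4% and 38.5% of all genes. The other 32 had opposite signs on the 2 arrays, where 25.1% of all genes had opposite signs.

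The ratios of the group were packed closely around 0. The mean ratio was under 0.2 from 0 for 66 of the 78 genes, or 84.6%, against 60.2% of all genes and 58.3% of the 11354 genes within the members' range of intensity. The SD over the members was 0.15, beside 0.34 over those 11354 genes, and the interquartile range was 0.20 wide beside 0.33. The 95% interval of limma's fit lay within a 1.5-fold change in either direction for 74 of the 78, or 94.9%, against 76.6% of all genes and 73.4% of the genes in that intensity range. The 4 genes whose interval reached past a 1.5-fold change were Mrps26, Mrpl37, Mrpl28 and Mrpl35. These are descriptions of a group of genes whose probes share the same 4 RNA samples, so the genes are not independent of each other.

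The highest ratio of the large subunit belonged to Mrpl37, a mitochondria-specific protein. Its processed signals were 845 and 990 in the deficient and 606 and 828 in the control samples of replicates 1 and 2, higher in the deficient sample within each array. The log2 ratio was 0.36 ± 0.08 (limma's SE, n = 2 arrays), with a limma adjusted p of 0.109. Its probe lies on chromosome 4 between 106558565 and 106559866 (mm8), a span longer than the probe itself, as when a probe crosses an intron. Mrpl12 is the homologue of bacterial L7/L12, the flexible stalk protein that brings translation factors to the ribosome. Its signals were 8440 and 8882 in the deficient and 6470 and 7258 in the control samples, again higher in the deficient sample within each array. The ratio was 0.33 ± 0.07 (SE, n = 2), with a limma adjusted p of 0.110. The other proteins of the stalk base did not share this value: Mrpl10, which anchors the stalk, had ratios of -0.06 and 0.06, and Mrpl11, which binds the rRNA beside it, had 0.21 and 0.07.

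Mrpl23 and Mrpl28, both homologues of bacterial proteins, completed the upper end of the large subunit. Mrpl23, which in bacteria sits at the rim of the peptide exit tunnel, had signals of 17919 and 16408 in the deficient and 16435 and 13630 in the control samples. Within each array the deficient signal was the higher, while across arrays the values overlapped. The ratio of Mrpl23 was 0.30 ± 0.07 (SE, n = 2; limma adjusted p 0.120). For Mrpl28 the ratios of 0.16 and 0.45 differed more between the arrays, and the mean was 0.31 ± 0.10 (SE, n = 2; limma adjusted p 0.171). A further probe of Mrpl28 also had a mean of 0.31.

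At the lower end of the large subunit stood Mrpl41, Mrpl22 and Mrpl32. Mrpl41, a mitochondria-specific protein, had signals of 6491 and 7401 in the deficient and 7219 and 9490 in the control samples, lower in the deficient sample within each array. The mean ratio of Mrpl41 was -0.26 ± 0.09 (SE, n = 2; limma adjusted p 0.162). Mrpl22, whose bacterial homologue lines the exit tunnel, gave the same ratio on both arrays, -0.24 and -0.24, with signals of 1402 and 1639 in the deficient and 1683 and 1962 in the control samples. For Mrpl22 limma's adjusted p was 0.142. Mrpl32, a protein that the mitochondrial inner-membrane AAA protease processes before assembly, had ratios of -0.12 and -0.35 and a limma adjusted p of 0.211. With each array centred on its median in place of loess, Mrpl41 and Mrpl32 were above 0, at 0.15 and 0.08.

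The other large-subunit genes named here for their brightness, role or probes lay between these ends. Mrpl58, a peptidyl-tRNA hydrolase that frees stalled mitochondrial ribosomes and is also built into the large subunit, was among the 3 brightest members, with ratios of -0.02 and 0.03 and a 95% interval from -0.20 to 0.22. Set against genes of like intensity, Mrpl58 was at -0.19, and Mrps33, the brightest member, moved from -0.06 to -0.29. At the bright end of the range, where Mrps33 lies, this centring subtracted a common value from all genes. Mrpl33, another of the 3 brightest, had ratios of -0.10 and -0.28. Mrpl3, a homologue of a bacterial protein that reaches towards the peptidyl transferase centre, had 0.17 on both arrays, while a further probe had -0.16 and -0.07 and the mean of its kept probes was 0.07. Mrpl44, which has an RNase III fold, had -0.09 and 0.08, and Mrpl47, a homologue of bacterial L29 at the tunnel exit, had -0.14 and 0.02. For Mrpl38 the values were -0.16 and 0.12. Mrpl35 varied most of these, at 0.09 and -0.48, with a 95% interval from -0.69 to 0.30, and the mean of its kept probes was -0.03.

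In the small subunit the highest gene was Mrps26, a mitochondria-specific protein and the highest of all 78. Its signals were 7498 and 7642 in the deficient and 6006 and 5346 in the control samples. The ratio was 0.41 ± 0.09 (SE, n = 2), or 133% of the control level, with a limma adjusted p of 0.106. A further probe had a mean of 0.37. Mrps7, a homologue of a bacterial protein that organises the head of the small subunit, had ratios of 0.12 and 0.28, while a further probe had -0.13 and 0.20. Mrps12, the homologue of the bacterial decoding-centre protein S12, had 0.04 and 0.17.

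The lowest of the 78 genes was Mrps5, homologue of a bacterial protein at the mRNA entrance that bears on decoding accuracy. Its signals were 1505 and 1984 in the deficient and 1856 and 2459 in the control samples, lower in the deficient sample within each array although the values overlap across arrays. The ratio was -0.29 ± 0.07 (SE, n = 2), or 81.8% of the control level, with a limma adjusted p of 0.116. Mrps6, homologue of a bacterial protein of the platform, had signals of 4684 and 3997 in the deficient and 5182 and 5105 in the control samples. Its ratio was -0.28 ± 0.08 (SE, n = 2; limma adjusted p 0.140), and a further probe had a mean of -0.32. Mrps17, homologue of an early-binding bacterial rRNA-binding protein, had 4906 and 4625 against 5450 and 5553. Its ratio was -0.26 ± 0.07 (SE, n = 2; limma adjusted p 0.130), and a further probe had -0.21. With median centring Mrps6 and Mrps17 were above 0, at 0.04 and 0.10. Mrps2 and Mrps9, homologues of bacterial S2 and S9, were also below 0 on both arrays, at -0.30 and -0.06 and at -0.11 and -0.08, and Mrps9 was above 0 with median centring.

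Genes with particular histories within the Mrps names were spread around 0. The 3 relatives of bacterial S18 had mean ratios of -0.01 for Mrps18a, 0.17 for Mrps18b and -0.08 for Mrps18c, and the arrays differed in sign for the first and last of them. Mrps18b was also the dimmest member, at a log2 intensity of 9.58. Mrps33, the brightest member, had 0.01 and -0.12. Mrps30, which like Mrps18a is now placed in the large subunit, had -0.11 and -0.07. Mrps36, which is now regarded as a component of the 2-oxoglutarate dehydrogenase complex and not of the ribosome, had 0.19 and 0.14.

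Promoters of the genes at both ends of this range are shown because the group holds recurrent short motifs and because genes with and without them can be set beside their ratios. Windows of 300 bases, 250 before and 50 after the RefSeq start (GRCm38.p6), were found for 69 of the 78 genes; those of Mrps28, Mrpl13, Mrpl15, Mrps34, Mrpl19, Mrps35, Mrpl54, Mrpl38 and Mrpl4 were not used here. Among the 6 highest and 6 lowest genes, those with an exact match to the NRF1 motif (GCGC, any base, then TGCGC, for a regulator of nuclear genes for mitochondrial proteins) or CCGGAAG (an ETS-family motif, as bound by GABPA) before the start are printed below over the 250 bases before the start, 5′ to 3′ on the gene's strand, with the match in capitals. Mrps26 lies at chr2:130563507-130563756 on the plus strand and Mrpl12 at chr11:120484387-120484636 on the plus strand. Mrpl32 lies at chr13:14613038-14613287 on the minus strand and Mrpl22 at chr11:58171414-58171663 on the plus strand.
Mrps26: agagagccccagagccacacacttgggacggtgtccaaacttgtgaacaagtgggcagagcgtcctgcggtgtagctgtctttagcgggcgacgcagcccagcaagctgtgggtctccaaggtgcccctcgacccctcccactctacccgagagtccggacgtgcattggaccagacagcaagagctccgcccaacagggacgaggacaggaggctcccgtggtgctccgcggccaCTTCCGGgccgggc
Mrpl12: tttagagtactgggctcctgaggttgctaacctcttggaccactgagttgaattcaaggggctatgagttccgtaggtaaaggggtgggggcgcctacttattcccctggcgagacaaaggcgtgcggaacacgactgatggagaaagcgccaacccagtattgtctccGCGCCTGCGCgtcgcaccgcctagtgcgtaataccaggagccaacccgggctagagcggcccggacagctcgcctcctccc
Mrpl32: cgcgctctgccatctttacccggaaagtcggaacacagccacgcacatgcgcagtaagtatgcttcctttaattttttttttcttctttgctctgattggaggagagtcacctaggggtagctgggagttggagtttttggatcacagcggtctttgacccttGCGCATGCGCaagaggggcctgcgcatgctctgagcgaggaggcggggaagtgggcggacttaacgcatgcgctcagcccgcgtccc
Mrpl22: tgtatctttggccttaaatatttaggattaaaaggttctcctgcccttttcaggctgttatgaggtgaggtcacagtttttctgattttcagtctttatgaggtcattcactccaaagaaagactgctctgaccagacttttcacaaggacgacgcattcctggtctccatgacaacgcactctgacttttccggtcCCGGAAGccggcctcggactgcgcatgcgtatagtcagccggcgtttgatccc

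The ETS letters of Mrps26 lie on the opposite strand and begin 14 bases before the start, and its window also holds the NRF1 letters after the start, while those of Mrpl22 begin 53 bases before it. The NRF1 letters begin 81 bases before the start of Mrpl12 and 87 bases before that of Mrpl32, where they read the same on both strands. Searched on both strands over the 300 bases, the NRF1 motif was in 13 of the 69 windows, or 18.8%, against 5.19% of 27025 genes, and the ETS motif was in 26, or 37.7%, against 9.93%. The YY1 motif AANATGGCG was in 11, or 15.9%, against 2.76%, and the E-box CACGTG, as bound by Myc, was in 5, or 7.25%, against 8.09%. None of these motifs is contained in another. The median log2 ratio of members with and without the match was -0.01 and -0.0021 for NRF1, 0.03 and -0.03 for ETS, and -0.01 and -0.0050 for YY1. For the E-box it was 0.12 over 5 genes against -0.01. A match describes these letters in this window and does not show that a factor binds there.

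Set by intensity, the large-subunit genes centred close to 0 and the small-subunit genes slightly below it in each band that held both, for the mean of the arrays. Between log2 intensities of 11 and 12 the median ratio was 0.04 for 8 large-subunit and -0.07 for 5 small-subunit genes, beside 0.01 for all 2165 genes there. Between 12 and 14 it was -0.0034 for 19 large-subunit and -0.08 for 16 small-subunit genes, beside -0.02 for all 3528 genes. At 14 and over it was 0.0041 for 22 large-subunit and -0.09 for 6 small-subunit genes, beside 0.01 for all 1948 genes. By array, the small-subunit medians were 0.02 and -0.13 between 12 and 14 and -0.0046 and -0.19 at 14 and over, so in these bands the lower value was that of replicate 2. The large-subunit medians by array were 0.06 and -0.05 between 12 and 14, and 0.03 and 0.04 at 14 and over. Below 10 lay only Mrps18b and Mrps27, at 0.17 and 0.05, and between 10 and 11 lay none. Across the 78 genes the mean ratio and the intensity had a Pearson's r of -0.02 and a Spearman's rho of -0.03, a description over genes that share 4 RNA samples.

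**Figure D2:**
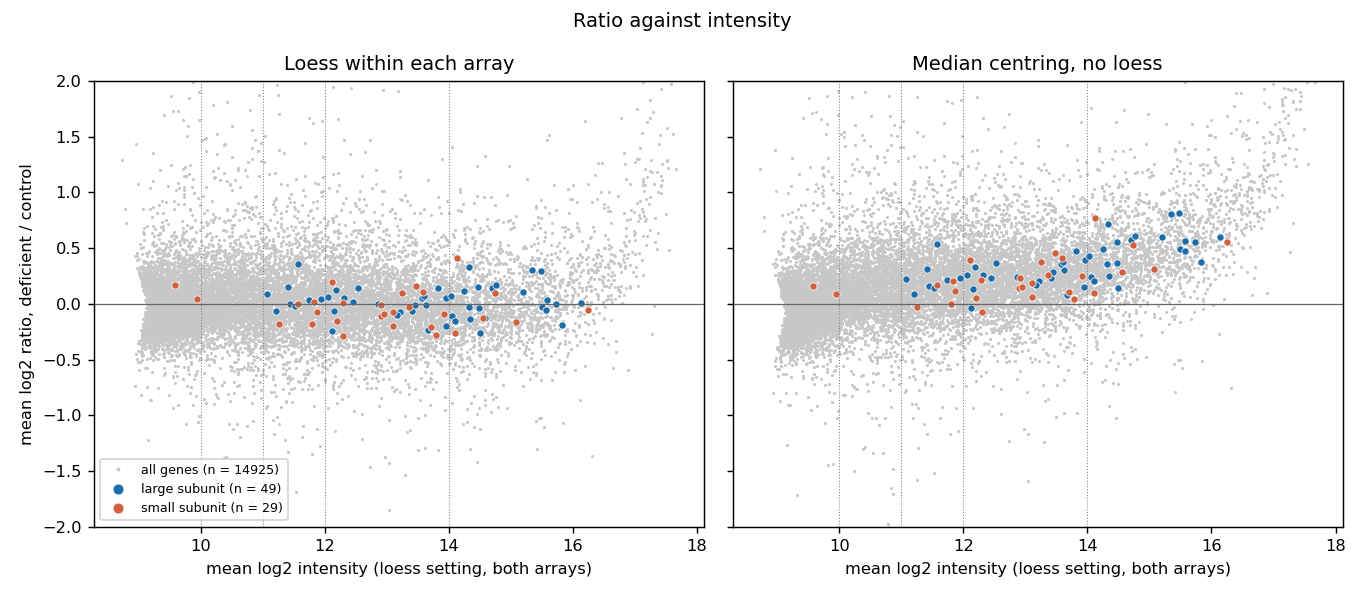
Mean log2 ratio of deficient over control against mean log2 intensity for all genes tested and for the large- and small-subunit genes, after loess (left) and with median centring (right). Of all genes, 23 on the left and 54 on the right lie outside the ratio axis. After loess the members lie around 0 from 9.58 to 16.25 on the intensity axis, and with median centring 74 of the 78 lie above 0.

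The centring by loess bears on the level of the group as a whole. With each array centred on its median instead, the median ratio of all genes was higher at higher intensity, from -0.04 below 10 to 0.12, 0.18, 0.24 and 0.47 in the 4 bands above. The members followed the genes of their own band, at 0.17 beside 0.18, 0.24 beside 0.24 and 0.49 beside 0.47 from 11 upwards. Their overall median was then 0.26, against 0.13 for all genes, and 68 of the 78 were higher on both arrays and 1 lower, where 55.0% of all genes were higher on both. Under that centring limma called 2 members higher, Mrpl12 at 0.72 (adjusted p 0.0414) and Mrpl23 at 0.81 (adjusted p 0.0445), and 6.58% of all genes, 877 higher and 105 lower. A shift common to all genes of an intensity cannot be told apart from a dye difference on arrays without a dye swap.

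The 2 subunits differed little, and the difference between them was not tested. The large subunit had a median of 0.04 on replicate 1, 0.06 on replicate 2 and 0.0051 for the mean, with 18 of 49 genes higher and 10 lower on both arrays. The small subunit had -0.02, -0.08 and -0.07, with 6 of 29 higher and 12 lower on both arrays. The shares higher and lower were 36.7% and 20.4% in the large and 20.7% and 41.4% in the small subunit, against 36.4% and 38.5% of all genes. With median centring both lay above 0, at 0.31 for the large and 0.19 for the small subunit. Moving Mrps18a and Mrps30 to the large subunit and leaving out Mrps36 gave 0.0032 for 51 genes and -0.07 for 26 genes.

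Within the small subunit the lower values were mainly those of genes with a bacterial homologue. These 16 genes, among them Mrps5, Mrps6 and Mrps17, had medians of -0.09 on replicate 1, -0.23 on replicate 2 and -0.16 for the mean. With the mean of all kept probes their median was -0.10. On both arrays 10 of them (62.5%) were lower and 3 (18.75%) higher, where 38.5% of all genes were lower and 36.4% higher. The 3 higher were Mrps7, Mrps12 and Mrps10. The 12 mitochondria-specific genes of the small subunit had a median of 0.0023, with 2 lower and 2 higher on both arrays (16.7% each). Mrps18a and Mrps18b, relatives of bacterial S18 that the particle holds beside Mrps18c, were counted among these 12; counted with the bacterial homologues, they gave a median of -0.14 over 18 genes and left 0.0023 over 10. In the large subunit the 30 genes with a bacterial homologue had a median of 0.04, with 14 higher (46.7%) and 6 lower (20%) on both arrays. The 19 mitochondria-specific genes of the large subunit had -0.0065, with 4 each way (21.1%). The median of the 16 small-subunit genes became 0.13 with median centring, where the 12 mitochondria-specific ones had 0.21. These classes were not tested against each other. Genes were assigned to them from general knowledge of the proteins, with earlier results of these data known.

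**Figure D3:**
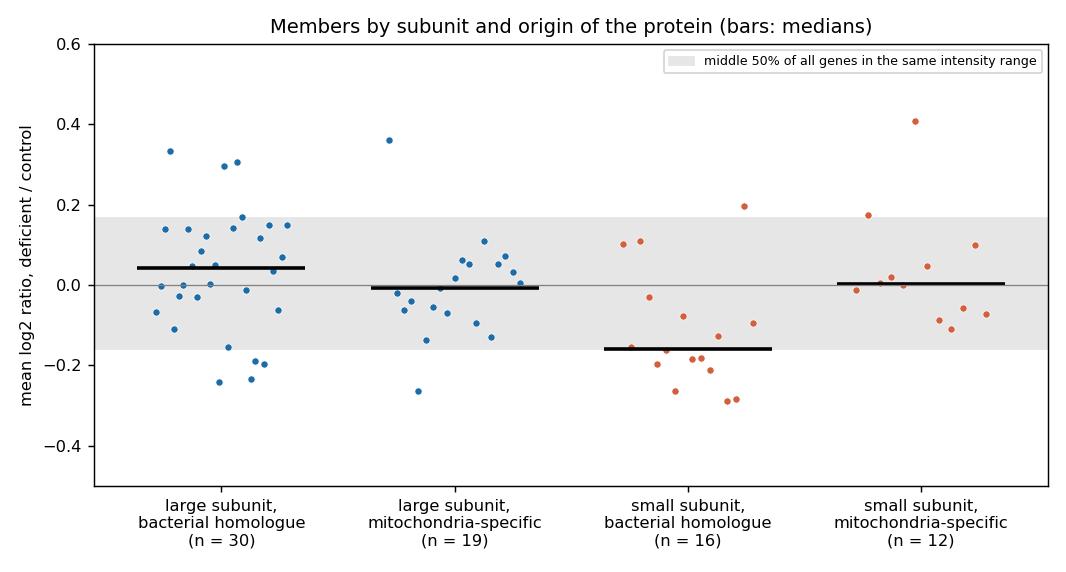
Mean log2 ratio of each mitochondrial ribosomal protein gene by subunit and by whether the protein has a bacterial homologue, with the median of each class. After loess, the 16 small-subunit genes with a bacterial homologue have a median of -0.16 (0.13 with median centring), and the other 3 classes have medians between -0.0065 and 0.04.

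The spread of the values was described between the arrays and between probes of the same gene. The arrays hold different samples, so their difference is not technical error alone. The absolute difference between the arrays had a median of 0.14 over the 78 genes and 0.13 over all genes, or 0.14 and 0.17 at intensities of 12 and over. Across the 78 genes the 2 arrays had a Pearson's r of 0.43 and a Spearman's rho of 0.40, and across all genes 0.67 and 0.63, both as descriptions. A further probe well above background was present for 30 members, giving 41 further probes. Of these, 31 had the sign of the brightest probe, or 75.6%, against 69.5% of 6614 further probes of all genes. The gap to the brightest probe had a median of 0.07 for members and 0.14 for all genes. Probes with the opposite sign belonged to Mrpl3, Mrpl35, Mrpl38, Mrpl44, Mrpl47, Mrps2, Mrps5 and Mrps9. The widest gap was 0.47, at Mrps5, where 1 further probe read 0.83 on replicate 1 and -0.47 on replicate 2 and another had a mean of -0.09. The low value of Mrps5 is thus that of its brightest probe, and the other 2 had means of -0.09 and 0.18.

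**Figure D4:**
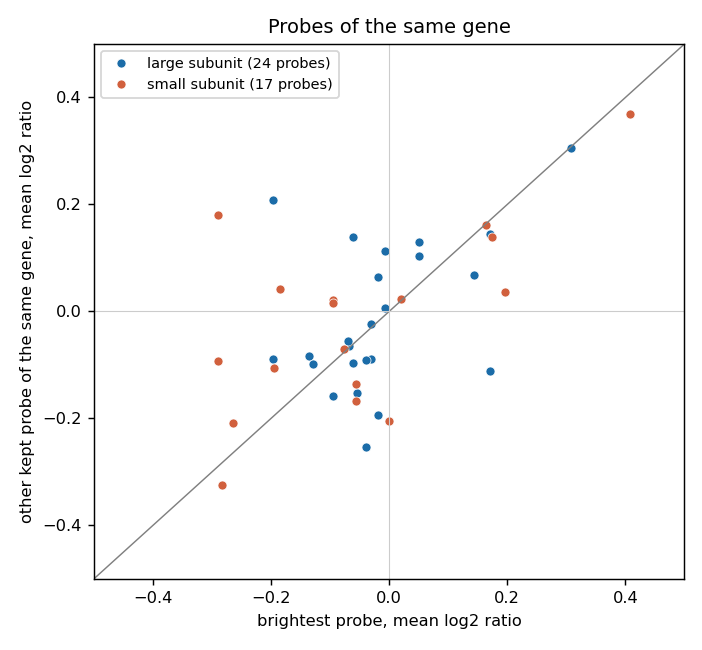
Mean log2 ratio of each further probe against that of the brightest probe of the same mitochondrial ribosomal protein gene, for 24 probes of the large and 17 of the small subunit, with the line of equal values. Probes of Mrps26, Mrpl28, Mrps6 and Mrps17 lie near the line, and both further probes of Mrps5 lie above it.

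The other genes of mitochondrial translation are given by list, beside the 60.2% of all genes with a mean ratio under 0.2 from 0. These shares were 76.9% for translation factors, 70.0% for aminoacyl-tRNA synthetases, 66.7% for assembly and rRNA modification and 93.3% for transcription and RNA processing. The 5 mitoribosome subunits with other names had a median of -0.05, from -0.10 for Ptcd3 to 0.02 for Aurkaip1. The 13 of 14 translation factors tested had a median of 0.02. At an unadjusted limma p under 0.05, 1 was higher and 0 lower, or 7.69% of them against 29.2% of all genes. Their highest were Tsfm, an elongation factor exchange protein, at 0.36, Oxa1l, the inner-membrane insertase, at 0.21 and Gfm1, an elongation factor, at 0.21. The lowest were Mtif2 at -0.19, Guf1 at -0.12 and Taco1 at -0.12.

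All 20 genes of the mitochondrial aminoacyl-tRNA synthetase list were tested, with a median of 0.07. At an unadjusted limma p under 0.05, 4 were higher and 2 lower, or 30% of them beside 29.2% of all genes. Lars2, the leucyl-tRNA synthetase, stood apart at 2.30 and 1.21 on the 2 arrays, with a limma adjusted p of 0.0896, from a single kept probe. Gatb, a subunit of the glutamyl-tRNA amidotransferase, and Sars2, the seryl-tRNA synthetase, had 0.26. The lowest were Wars2 at -0.54, Vars2 at -0.50 and Mars2 at -0.13.

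Of the genes of ribosome assembly and rRNA modification, 24 of 26 were tested, with a median of 0.02. At an unadjusted limma p under 0.05, 3 were higher and 3 lower, or 25% of them beside 29.2% of all genes. Mrm1, an rRNA methyltransferase, had 0.50 and Mettl17 had 0.34, while Mettl15 and Rbfa had 0.21. Mettl17 was dim, at a log2 intensity of 9.17, with processed signals of 61 and 75 in the deficient against 22 and 27 in the control samples. Malsu1 had -0.36, Trub2, a pseudouridine synthase, -0.33 and Mtg2, an assembly GTPase, -0.26. Of the genes of mitochondrial transcription and RNA processing, 15 of 16 were tested, with a median of -0.12. At the same unadjusted p, 0 were higher and 1 lower, or 6.67% of them against 29.2% of all genes. The ratios of this list ran from Trmt10c, a subunit of mitochondrial RNase P, at -0.40, Polrmt, the mitochondrial RNA polymerase, at -0.16 and Ssbp1 at -0.14 up to Lrpprc at 0.03, Elac2 at 0.11 and Polg2 at 0.15.

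The genes of the cytosolic ribosome had other values on the same arrays. Their 77 genes had a median of 0.57 on replicate 1, 0.44 on replicate 2 and 0.49 for the mean, with 61 higher (79.2%) and 3 lower (3.9%) on both arrays. Of these, 73 lay at a log2 intensity of 14 and over, where 39.6% of all genes were higher and 34.4% lower on both arrays. They were also brighter, with a median log2 intensity of 16.9 beside 13.5 for the mitochondrial ribosomal protein genes. The median of the cytosolic genes was 0.28 after centring on genes of like intensity, 0.17 from the deposited processed signals and 1.15 with median centring, while that of the mitochondrial ribosomal protein genes was 0.0039, -0.03 and 0.26. From the brightest genes the first of these centrings subtracted a common value, so those genes were not set against genes of their own intensity. Only 20.8% of the cytosolic genes had a mean ratio under 0.2 from 0, beside 84.6% of the mitochondrial ones. At intensities of 14 and over these shares were 20.5% and 78.6%, beside 50.4% of all genes there. The difference between these lists was not tested.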

How the data were processed

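RNA of DP thymocytes was compared on 2 arrays, each with a Bcl11b-deficient (Cy5) and a control (Cy3) sample. Per the file headers, the deposited mean signals and local background values are scanner intensity with no correction, and the deposited processed signals are intensity corrected for background, spatial trend and dye, by Agilent Feature Extraction 9.5.3.1, which the submitters' processing notes also name. Per the file headers, the deposited log ratio holds log10 values of processed Cy5 over Cy3, and the deposited value table matches that log10 ratio with no unit stated. Probe positions refer to mm8.

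Local background was removed by normexp (offset 50), followed by within-array loess in which control spots had weight 0 (limma 3.58.1 and statmod 1.5.0 under R 4.3.3). Spots marked as outliers (108 and 116) were left out, and spots of a probe were averaged. Probes were kept if well above background on both arrays in either channel (21539 of 41174), and each gene took its brightest kept probe. Current symbols were found for 24375 probes through their accession, for 6301 through the symbol and for 2426 through a synonym in a RefSeq gene table, and 8072 kept the printed name. The mean of both arrays was tested against 0 with limma (1 residual degree of freedom, prior 2.50 degrees of freedom), with Benjamini-Hochberg adjustment over 14925 genes and a threshold of 0.05. The number of arrays limits the precision, and the p values measure only the spread between these samples.

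The genes described and the lists were chosen with earlier results of these data known. Named were the 6 highest and 6 lowest members, the 3 brightest, those called, those with probes of opposite sign, and Mrpl10, Mrpl11, Mrpl12, Mrpl58, Mrps12, Mrps18a, Mrps18b, Mrps18c, Mrps30 and Mrps36 for their roles, with the 3 highest and 3 lowest of the related lists. Some genes of these lists are not reported here. Rag2, Cd8b1, Lyz2, Cd14, Csf1r, Dcn, Col1a1, Pecam1, Epcam, Krt8, H2-Aa and Alas2 were named after their values were seen, and moving Mrps18a and Mrps18b between classes was chosen after seeing the data. Mrps27 and Mrps10, and the genes without a promoter window, were named after their values were seen. Alternatives were the processed signals, the value table, median centring, centring on genes of like intensity (a running median over 501 genes), no background correction, other filters, the mean of all kept probes, a separate-channel fit and each array alone. At each end of the intensity range, where the window of 501 genes was incomplete, the running median was held constant. The code was tested on simulated data.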

Additional observations from a re-analysis of the deposited data

How the results depend on the processing

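The count of called genes depended on the processing: limma at an adjusted p of 0.05 called 0 genes in the reported setting (4364 at an unadjusted p under 0.05), 124 from the deposited value table, 219 from the processed signals, 982 with median centring and 1267 with a separate-channel fit. Centring on genes of like intensity, no filter, a filter on both channels, the mean of all kept probes and no background correction gave 0. Mitochondrial ribosomal protein genes called numbered 2 with median centring and 0 in each of the other settings. The large-subunit median was 0.017 with centring on genes of like intensity, 0.017 with the mean of all kept probes and 0.31 with median centring, and 0.042 without replicate 2 to 0.058 without replicate 1. The small-subunit median was -0.039 with centring on genes of like intensity, 0.19 with median centring and -0.077 without replicate 1 to -0.016 without replicate 2.

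Of the 30 named members, 15 changed sign with median centring: Mrpl10 (0.24), Mrpl32 (0.083), Mrpl33 (0.37), Mrpl35 (0.15), Mrpl38 (0.15), Mrpl41 (0.15), Mrpl44 (0.29), Mrpl47 (0.087), Mrps17 (0.10), Mrps18a (0.24), Mrps18c (0.19), Mrps30 (0.25), Mrps33 (0.55), Mrps6 (0.043) and Mrps9 (0.16). With centring on genes of like intensity these were Mrpl10 (0.0043), Mrpl44 (0.039), Mrpl58 (-0.19) and Mrps18a (0.0076). The value table and the processed signals each turned Mrpl44 (0.029) and Mrpl58 (-0.12), the mean of probes turned Mrpl44 (0.038), and no background correction turned Mrpl10 (0.0012) and Mrpl58 (-0.0012). The single arrays, each without the other replicate, differed in sign for 9 members, which ranged from -0.065 to 0.058 for Mrpl10, -0.48 to 0.089 for Mrpl35, -0.16 to 0.12 for Mrpl38, -0.094 to 0.081 for Mrpl44, -0.14 to 0.022 for Mrpl47, -0.024 to 0.034 for Mrpl58, -0.12 to 0.10 for Mrps18a, -0.28 to 0.13 for Mrps18c and -0.12 to 0.0072 for Mrps33. Single arrays gave values with no test. The cause of these changes was not tested. The reported test is itself paired, since each array ratio sets 1 deficient against 1 control sample, and the separate-channel fit keeps the array as the block.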
